A study of Rattus norvegicus with 51 samples.

Results

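Cyclic stretch across the pattern of aligned heart muscle tissue was compared with no stretch after 96 h. The comparison rests on 6 arrays out of 51 in the series, 3 of transversely stretched tissue (harvests 1, 2 and 4) and 3 of unstretched tissue (harvests 1, 2 and 3), picked by layout, stretch direction and time as labelled. All were neonatal ventricular myocytes of Sprague-Dawley rats, seeded on silicone carrying micropatterned fibronectin (anisotropic tissue), left to attach for 1 h and then held still or stretched for 96 h, in medium with serum at 10% over the initial 48 h, then at 2%. Harvests are numbered in the labels, which say neither whether each was a separate cell preparation nor how many animals went into it. How far and how fast the tissue was stretched is not given in the sources used here. For comparison, longitudinal stretch at 96 h (harvests 1, 5 and 6), the same transverse pair at 24 h and an isotropic pair at 96 h, grown on evenly coated fibronectin with and without stretch, each had 3 arrays a group.

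Ventricular myocytes are the contractile cells of the heart, and a primary preparation from neonatal hearts also carries fibroblasts, macrophages, vascular cells and cells of the epicardium. Myocytes sense load at integrin adhesions, at the Z disc and at the intercalated disc, where neighbours are joined end to end. Stretch is known to act through YAP and TEAD, through SRF and its MRTF cofactors, and through calcineurin, and load on the heart is known for a foetal gene programme with natriuretic peptides and skeletal actin. In aligned tissue, transverse stretch pulls the cells across their long axis, which is the axis of their sarcomeres.

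Values are log2 signals, so that 1 unit is a doubling of signal, and each change is transverse minus none as fitted with limma on all 51 arrays with a term for harvest, ± its standard error. A gene passed when its Benjamini-Hochberg adjusted p over 18602 genes was under 0.05. Arrays correlated at 0.9887 to 0.9939 within the 2 groups and at 0.9714 to 0.9877 between them, and array medians lay between 5.33 and 5.43. With 3 arrays a group, the number of arrays limits the precision. Arrays were also placed on a scale from 0 for the mean of unstretched anisotropic tissue at 24 h to 1 for that at 96 h. On it the unstretched arrays of harvests 1, 2 and 3 lay at 0.919, 1.109 and 0.971. The transversely stretched arrays of harvests 1, 2 and 4 lay at 0.741, 0.862 and 0.506. Outside these groups, 1 isotropic array of stretched tissue at 24 h lay near the unstretched 96 h arrays, at 0.902, and 1 isotropic unstretched array at 96 h lay at 0.216. Both enter the estimate of the spread. With them left out, 3676 genes passed in the main comparison in place of 2797.

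Transverse stretch for 96 h changed 2797 of 18602 genes, or 15.0% of those tested, with 1188 higher (6.39%) and 1609 lower (8.65%). Of these, 365 rose and 745 fell by at least 1.5-fold, and 97 rose and 308 fell by at least 2-fold. Within the harvests that held both groups, 2764 of the 2797 genes had the sign of the fitted change in both harvest 1 and harvest 2. The calls used these arrays too, so that count is no separate evidence. The stretched and unstretched arrays did not overlap for 4325 genes (23.3% of those tested), among them 2275 of the 2797 that passed (81.3%). For genes named because they passed, a lack of overlap is therefore a description and little added support. Without the stretched array of harvest 1 the count fell to 1601. When arrays were quantile-normalized once more, 3215 genes passed and 52.9% of them were higher, against 42.5% in the main fit. The median change over all genes was 0.02. Counts for the lists below are to be read against 6.39% of all genes higher and 8.65% lower. The lists were chosen with earlier results of these data known, so their counts are a description. In RNA of whole tissue, fewer cells of a type and less RNA per cell cannot be told apart.

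The 12 largest rises ran from 1.68 to 3.81. Adamts8, a secreted metalloproteinase, read 6.11, 6.20 and 5.91 on the unstretched arrays of harvests 1, 2 and 3, and 10.64, 9.61 and 9.49 on the stretched arrays of harvests 1, 2 and 4. All 3 stretched arrays lay more than 3 units above all 3 unstretched ones, a rise of 3.81 ± 0.36 or 14-fold (limma adjusted p = 8.6e-09). A second probe set of Adamts8 rose by only 0.48, so the probe sets disagree on the size. Leprel1 (now P3h2), a prolyl hydroxylase that modifies collagen, read 6.96, 8.09 and 7.50 without stretch and 10.06, 9.84 and 10.11 with it. The groups did not overlap, and the stretched arrays were much closer to each other than the unstretched ones (2.61 ± 0.28, adjusted p = 9.2e-08). Flt4, a receptor for vascular endothelial growth factors C and D, went from 5.58, 6.22 and 5.96 to 7.94, 7.73 and 7.78 (1.96 ± 0.20, adjusted p = 7.5e-08), again with no overlap.

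Gdf15, a stress-induced cytokine of the TGF-beta family, read 7.53, 7.09 and 6.76 without stretch and 9.06, 8.49 and 9.57 with stretch. Its lowest stretched array stood about 1 unit above the highest unstretched one, and the change was 1.85 ± 0.39 (adjusted p = 9.0e-04). Tgfb2, a TGF-beta ligand, rose by 1.68. Fstl3, which binds and blocks activins, rose by 1.90, and Ptgs2, the inducible cyclooxygenase of prostaglandin synthesis, by 1.78. Kremen1, a Dickkopf receptor of the Wnt pathway, rose by 1.86, from 7.09, 7.41 and 7.25 to 9.54, 8.81 and 8.91. Pkp1, a desmosomal plakophilin, rose by 1.78, Fibin by 1.75 and Syt11, a synaptotagmin, by 1.73. The adjusted p of the 7 genes from Tgfb2 to Syt11 ran from 3.2e-09 for Kremen1 to 0.0019 for Ptgs2, and no stretched array overlapped an unstretched one in any of them.

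**Figure D1:**
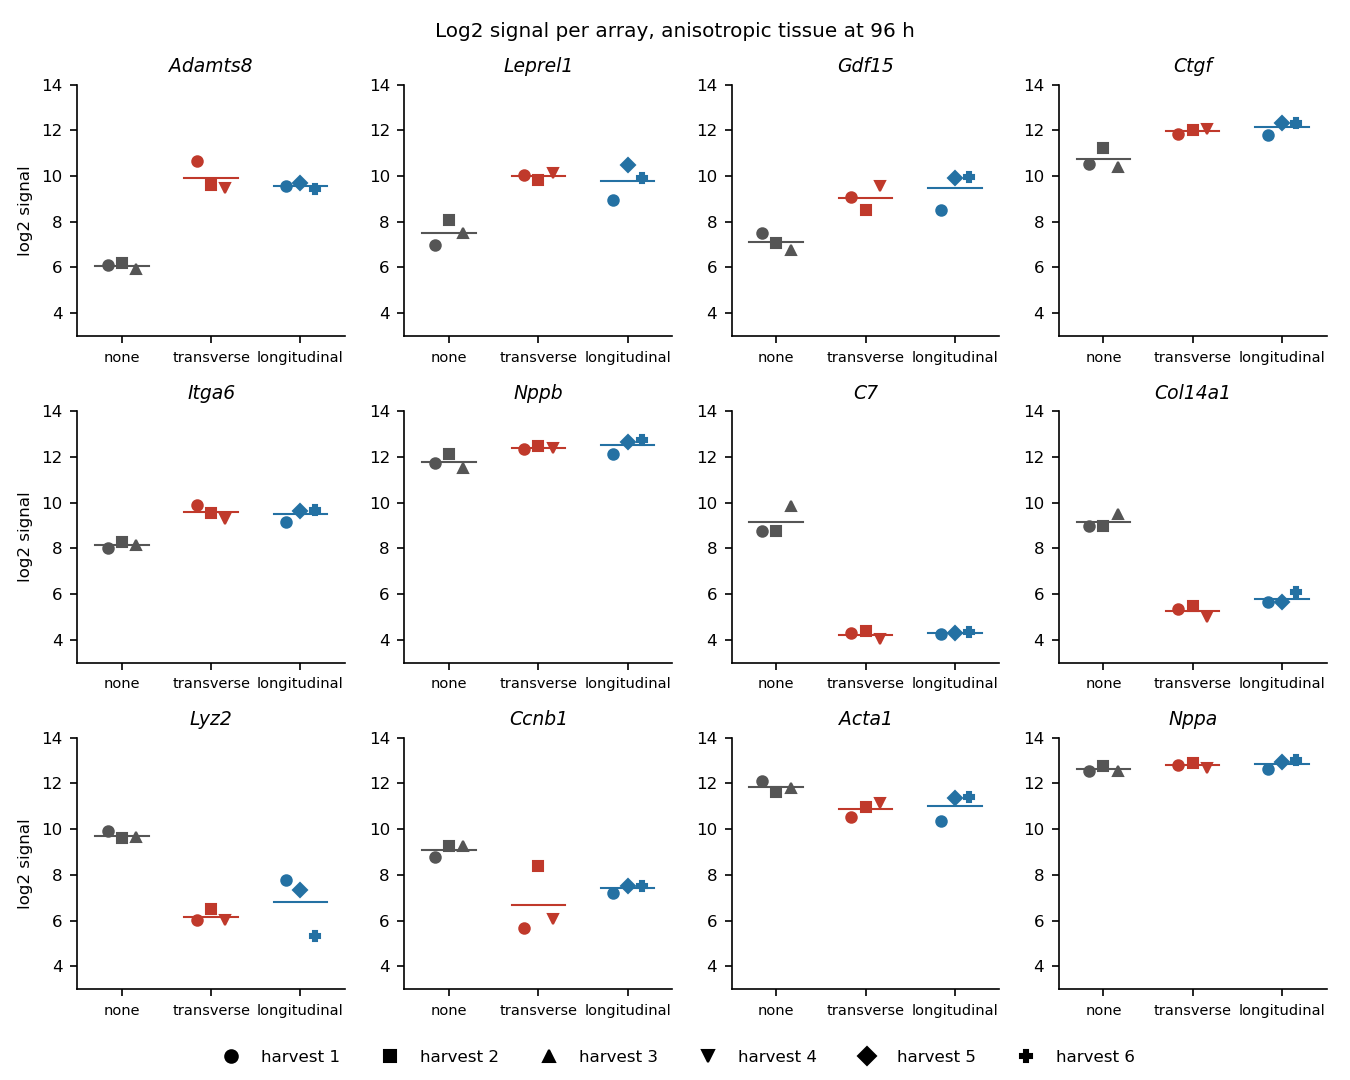
Log2 signal of 12 genes on the arrays of anisotropic tissue at 96 h without stretch, with transverse stretch and with longitudinal stretch (3 arrays each; the symbol gives the harvest, the bar the group mean). Adamts8 on transversely stretched arrays lies at 9.49 to 10.64 against 5.91 to 6.20 without stretch, C7 and Col14a1 fall on all stretched arrays, and the stretched Ccnb1 array of harvest 2 lies apart from the other 2.

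The 12 largest falls ran from -4.60 to -2.73. C7, a component of the terminal complement complex, read 8.76, 8.76 and 9.87 on unstretched arrays and 4.29, 4.36 and 4.02 on stretched ones. Every stretched value lay below the median log2 signal of all genes, 5.93, and the fall was 24.3-fold (-4.60 ± 0.68, adjusted p = 1.4e-05). Col14a1, a collagen that sits on the surface of fibrils, lay between 8.97 and 9.48 on the unstretched arrays and at 5.33, 5.48 and 5.01 on the stretched ones (-3.59 ± 0.38, adjusted p = 8.2e-08). Here the falls within harvest 1 (-3.63) and within harvest 2 (-3.52) were nearly equal. The heparin-binding growth factor pleiotrophin (Ptn) changed by -3.54, the aggrecan-cleaving proteinase Adamts5 by -3.30 and the guidance ligand Slit3 by -2.79. Figf, which encodes vascular endothelial growth factor D, one of the ligands of the receptor Flt4, fell by 3.12, from 7.02, 7.58 and 8.39 to 4.07, 4.61 and 4.60. Mmp12, the elastase of macrophages, read 9.71, 9.85 and 10.14 without stretch and 5.41, 6.99 and 8.49 with it, so that its stretched arrays differed among themselves by about 3 units (-3.02 ± 0.53, adjusted p = 1.3e-04).

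Fibroblast markers were lower in stretched tissue. Of 11 measured markers 7 fell and none rose, with a median change of -1.71. Dermatopontin (Dpt), a matrix protein, read 9.68, 9.49 and 10.00 without stretch and 5.60, 5.87 and 6.87 with it. The proteoglycan gene Lum went from 8.13, 8.58 and 9.04 to 4.89, 5.40 and 5.38, and Dcn, which encodes decorin, from 8.82, 9.28 and 9.69 to 5.05, 6.21 and 7.63. None of the 3 overlapped between groups, and Dcn spread over more than 2 units among the stretched arrays. Tcf21, a transcription factor of cardiac fibroblasts, was the steadiest of them, with 9.16, 8.82 and 9.31 against 6.32, 6.43 and 6.55 (-2.55 ± 0.24, adjusted p = 8.6e-09). The mean signal over the 11 markers was 9.53, 9.85 and 10.03 on the unstretched arrays and 7.55, 8.06 and 7.90 on the stretched ones. Of the 11, Col1a1, the main chain of fibrillar collagen, changed by -0.28 ± 0.25 and did not pass (adjusted p = 0.53).

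Macrophage markers were lower as well. Of 14 measured, 12 fell and none rose (median -1.23), although 8 of the 14 had a mean signal below the median of all genes. Lyz2, the lysozyme of macrophages, read 9.90, 9.60 and 9.65 without stretch and 6.02, 6.50 and 6.02 with it, a fall of 10.3-fold (-3.36 ± 0.55, adjusted p = 5.9e-05). Cd68, a lysosomal protein of macrophages, went from 9.27, 8.92 and 9.35 to 5.85, 6.47 and 6.75. Both were separated by over 2 units between the groups. The mannose receptor gene Mrc1 fell by 2.51 and Laptm5, a lysosomal membrane protein of blood cells, by 1.90. The mean signal over the 14 markers was 6.96, 6.96 and 7.12 without stretch and 5.29, 5.42 and 5.90 with it. The mean over 10 cardiomyocyte markers was 11.81, 11.20 and 11.61 without stretch and 11.63, 11.45 and 11.49 with it. Of these 10, 1 was higher and 2 were lower, and the median difference was -0.06 within harvest 1 and 0.25 within harvest 2. The part of cell makeup in the changes of other lists was not tested.

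Complement, much of which is made by macrophages and fibroblasts, fell in 8 of 14 measured genes with none higher (median -1.01). Mean signal lay below the median of all genes in 9 of the 14. C1s, a protease of the classical pathway, read 7.28 ± 0.65 (mean ± SD, n = 3) without stretch and 4.92 ± 0.94 with it, and C1qa, a chain of the recognition molecule of that pathway, 6.57, 6.43 and 6.70 and 4.63, 4.87 and 4.56. Serping1, the inhibitor of C1, fell by 1.32 (adjusted p = 1.6e-06). C1qa, C1qb and C1qc are among the macrophage markers too, so the lists are not separate evidence. Leaving out any single array of the 6 left 8 lower complement genes, 7 lower fibroblast markers and 11 or 12 lower macrophage markers.

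Of 8 endothelial markers 2 were lower, with Tek, the angiopoietin receptor, at -0.73 ± 0.16, and 2 of 8 epicardial and mesothelial markers were lower, with Upk3b at -0.58 ± 0.11. Smooth muscle and pericyte markers went both ways, with 3 higher and 4 lower of 9, where 2 were lower without the unstretched array of harvest 2 or the stretched array of harvest 1. Mcam, an adhesion molecule, read 8.95, 9.26 and 9.04 without stretch and 10.58, 10.47 and 10.59 with it, while Rgs5, a pericyte marker, read 6.44, 6.91 and 7.55 and 5.82, 6.15 and 5.61. The groups did not overlap in either. Only 1 of 8 Schwann cell and neuron markers and none of 6 erythroid markers passed, and the erythroid gene Hbb lay at 5.29, 5.77 and 5.95 and 6.32, 5.83 and 5.80, which overlap. Mean signal lay below the median of all genes in 6 of 8 endothelial, 6 of 8 epicardial and mesothelial, and 6 of 8 Schwann cell and neuron markers. The same held for 5 of 6 erythroid markers.

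Cell cycle genes fell as a group. Of 33 measured genes 30 fell and 1 rose, with a median of -1.46 against 0.02 over all genes. Ccnb1 and Ccnb2 encode the B-type cyclins that drive mitosis, Top2a the topoisomerase that untangles replicated DNA, and Rrm2 a subunit of ribonucleotide reductase. Ccnb1 read 8.76, 9.25 and 9.27 without stretch and 5.67, 8.39 and 6.05 with stretch (-2.36 ± 0.42, adjusted p = 1.6e-04). Top2a read 8.88, 8.94 and 9.01 and 6.28, 8.39 and 5.43 (-2.12 ± 0.44, adjusted p = 7.7e-04). The unstretched arrays were tight and the stretched ones were not: those of harvests 1 and 4 lay far below, and that of harvest 2 lay just below the unstretched arrays. The genes outside this fall were Ccnd2, which rose by 0.29, Ccnd1 and Cdk2 (named after their values were seen), D-type cyclins and a kinase of the step into DNA replication. Ccnd2 did not pass with any one of the 6 arrays left out.

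That difference between harvests ran through the list. The median difference between stretched and unstretched tissue over the 33 genes was -1.69 within harvest 1 and -0.51 within harvest 2. In both harvests 31 of the 33 were below 0, against 9551 and 8542 of all 18602 genes. The same arrays gave the calls, and the list was chosen with earlier results of these data known. These counts are therefore a description and no separate evidence. The mean signal of the list was 8.17, 8.38 and 8.41 on unstretched arrays and 6.59, 7.87 and 6.54 on stretched ones, while longitudinally stretched arrays lay at 7.34, 7.52 and 7.43. The count of lower genes was 29 or 30 with any one of the 6 arrays left out. It was 2 in a fit of harvests 1 and 2 alone and 4 in a fit of the 6 arrays alone, where Ccnb1 had an adjusted p of 0.16 and 0.08 at changes of -1.98 and -2.39.

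**Figure D2:**
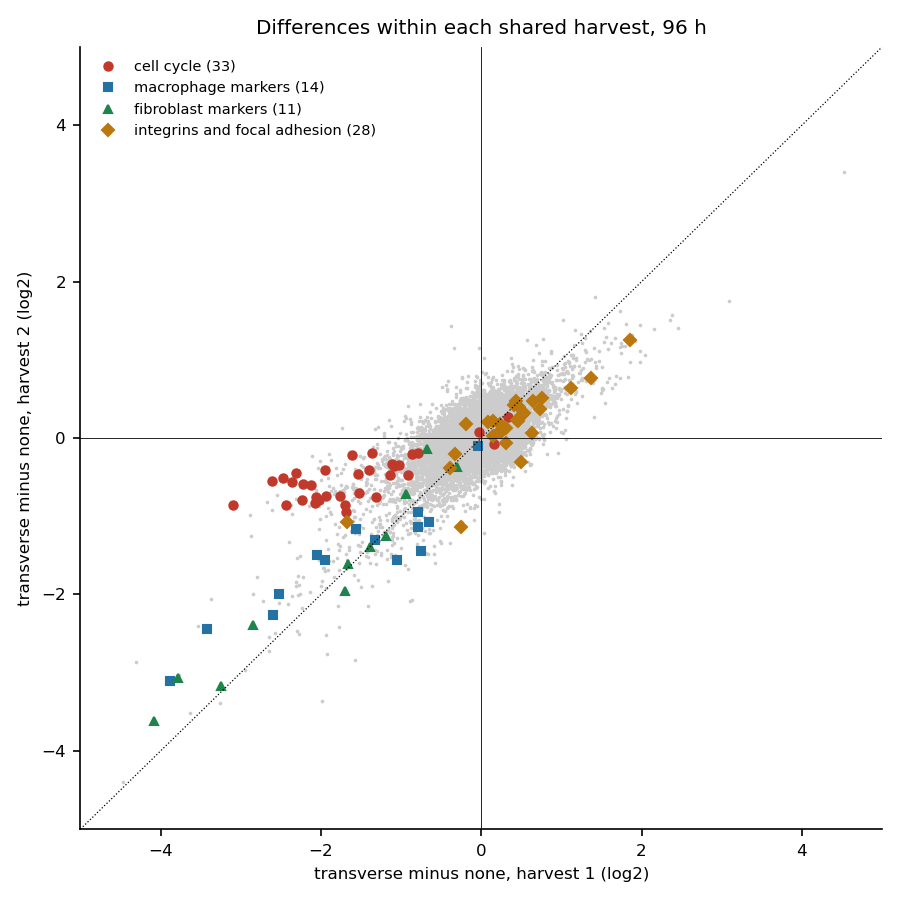
Transverse minus no stretch at 96 h within harvest 1 (x axis, log2) and within harvest 2 (y axis, log2) for 18602 genes in grey, with cell cycle genes, macrophage markers, fibroblast markers and integrin and focal adhesion genes marked and the line of equality dotted. Most cell cycle genes lie above the line, at a median of -1.69 in harvest 1 and -0.51 in harvest 2, while fibroblast markers lie along it (-1.66 and -1.61).

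Promoters of 3 of these genes are given because they fell together and because many cell cycle promoters are known to share a pair of short elements, the CCAAT box bound by NF-Y and the CHR element (TTTGAA or TTTAAA) bound by the DREAM and MuvB complexes. The sequences are from RefSeq on the GRCr8 build, from 250 bases before to 50 after each start site, all on the minus strand, at chr2:33655176-33655475 for Ccnb1, chr8:79981609-79981908 for Ccnb2 and chr10:84473044-84473343 for Top2a. Capitals mark each match of CCAAT and of the CHR letters on either strand (ATTGG and TTCAAA are the matches on the opposite strand).
Ccnb1: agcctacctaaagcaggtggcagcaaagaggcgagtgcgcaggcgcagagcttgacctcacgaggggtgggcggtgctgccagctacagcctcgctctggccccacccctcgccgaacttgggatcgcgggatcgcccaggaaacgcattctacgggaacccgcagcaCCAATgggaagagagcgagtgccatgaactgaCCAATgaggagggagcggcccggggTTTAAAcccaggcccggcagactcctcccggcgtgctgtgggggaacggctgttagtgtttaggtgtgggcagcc
Ccnb2: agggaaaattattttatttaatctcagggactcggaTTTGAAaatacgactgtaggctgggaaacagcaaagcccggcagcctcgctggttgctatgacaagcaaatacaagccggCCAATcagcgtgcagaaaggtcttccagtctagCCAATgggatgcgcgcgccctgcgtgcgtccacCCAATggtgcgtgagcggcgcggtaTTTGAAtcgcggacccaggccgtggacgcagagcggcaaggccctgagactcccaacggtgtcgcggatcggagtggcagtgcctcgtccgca
Top2a: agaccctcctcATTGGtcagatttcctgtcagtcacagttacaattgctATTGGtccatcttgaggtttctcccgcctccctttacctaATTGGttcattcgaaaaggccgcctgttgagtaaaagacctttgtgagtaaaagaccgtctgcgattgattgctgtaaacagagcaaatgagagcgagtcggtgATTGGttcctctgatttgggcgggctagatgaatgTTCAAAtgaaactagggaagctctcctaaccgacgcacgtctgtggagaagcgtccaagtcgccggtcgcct

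In Ccnb1 the CCAAT matches began at -82 and -50 and the CHR match at -25, counted from the start site. Ccnb2 held CCAAT at -134, -101 and -68 with CHR letters at -214 and -43, and Top2a held CCAAT, on the opposite strand, at -239, -201, -161 and -57 with CHR letters at -22. In each promoter a CHR match lay between the last CCAAT match and the start site. Of the list, 24 genes had a promoter in the table, of which 18 held CCAAT (75%) and 17 a CHR match (70.83%). Over all 27457 promoters of the same length the shares were 37.74% and 27.91%. Among 11 promoters of macrophage markers, 6 held CCAAT (54.55%) and 6 a CHR match (54.55%). For these elements, shares above those of all promoters were thus not particular to the cell cycle list. Among 13 promoters of YAP and TEAD targets, 4 held CCAAT (30.77%) and 3 a CHR match (23.08%). Letters of the E2F motif (TTTGGCG or TTTCGCG) were searched as well. They were found in 7 of the 24 cell cycle promoters (29.17%), in 2.356% of all promoters and in 0 of the 11 of macrophage markers. These are matches of letters, and binding was not measured.

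Targets of YAP and TEAD, the transcription factors of the Hippo pathway, went in both directions. Of 17 measured 8 rose and 3 fell (median 0.29). Ctgf (now Ccn2) and Cyr61 (now Ccn1), matricellular proteins that are the best known targets, both rose. Ctgf read 10.54, 11.24 and 10.41 without stretch and 11.83, 12.01 and 12.05 with it (1.26 ± 0.29, adjusted p = 0.0023), and Cyr61 read 9.94, 10.69 and 9.91 and 11.11, 11.26 and 11.24 (1.08 ± 0.20, adjusted p = 3.0e-04). In both, the unstretched array of harvest 2 was the highest of its group and still below all stretched arrays. F3, tissue factor, was lower on every stretched array, going from 7.15, 7.69 and 7.21 to 6.02, 6.17 and 6.07 (-1.32 ± 0.12, adjusted p = 3.2e-09). With 1 array left out at a time, 6 to 9 targets were higher and 1 to 3 lower, with 1 lower without the unstretched array of harvest 2 or the stretched array of harvest 1.

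The promoters of Ctgf (chr1:22624565-22624864) and Cyr61 (chr2:237225640-237225939), on the minus strand of GRCr8 and taken from RefSeq over the same window, are shown for their TEAD letters. Capitals mark GGAATG, or CATTCC where it lies on the opposite strand.
Ctgf: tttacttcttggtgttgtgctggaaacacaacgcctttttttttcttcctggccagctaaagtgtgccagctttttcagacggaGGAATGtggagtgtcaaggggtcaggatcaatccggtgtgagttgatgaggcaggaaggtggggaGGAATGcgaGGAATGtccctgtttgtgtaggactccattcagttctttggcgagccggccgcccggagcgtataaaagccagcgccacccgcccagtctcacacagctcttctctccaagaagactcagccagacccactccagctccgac
Cyr61: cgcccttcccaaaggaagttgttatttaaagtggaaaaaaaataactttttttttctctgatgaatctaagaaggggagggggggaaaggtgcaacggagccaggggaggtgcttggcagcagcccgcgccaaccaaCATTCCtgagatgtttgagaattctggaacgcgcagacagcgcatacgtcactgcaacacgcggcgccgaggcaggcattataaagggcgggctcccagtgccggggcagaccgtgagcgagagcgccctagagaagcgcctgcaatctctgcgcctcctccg

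Ctgf held GGAATG at -166, -101 and -92, and Cyr61 held it once, on the opposite strand, at -113. Of the 13 listed genes with a promoter in the table, 6 held the letters (46.15%), against 13.88% of all 27457 promoters. A match in this window does not show that a factor binds there.

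Genes of integrins and focal adhesions, the contacts through which cells grip the matrix, rose more often than they fell. Of 28 measured 14 rose and 2 fell (median 0.30). Itga6, a laminin receptor chain, read 8.03, 8.29 and 8.16 without stretch and 9.88, 9.54 and 9.28 with it (1.49 ± 0.20, adjusted p = 3.8e-06). Itga5, the fibronectin receptor chain, read 8.52, 8.82 and 8.61 and 9.89, 9.58 and 9.28 (1.02 ± 0.15, adjusted p = 1.7e-05), and Itgb5 rose by 0.88. The 3 genes did not overlap between groups, and each rose more within harvest 1 than within harvest 2. Cav1, the coat protein of caveolae, went the other way, from 8.87, 9.56 and 9.20 to 7.19, 8.48 and 7.79 (-1.35 ± 0.35, adjusted p = 0.0072), and did not pass without the stretched array of harvest 1 (adjusted p = 0.072). Leaving out 1 array at a time gave 10 to 14 higher genes.

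Among targets of SRF and MRTF, the actin-sensing transcription factors, 6 rose and 3 fell of 17. Tes, a focal adhesion protein, read 6.41, 7.30 and 6.81 without stretch and 7.62, 8.13 and 7.64 with it (1.00 ± 0.13, adjusted p = 1.2e-06), and Zyx, which encodes zyxin, read 9.23, 9.24 and 8.85 and 9.99, 9.75 and 9.82 (0.81 ± 0.11, adjusted p = 1.7e-06). Neither overlapped. RGD1565927, listed as Filip1l, rose by 0.67. The count of higher targets was 3 without the unstretched array of harvest 1 or of harvest 3, and that of lower targets was 0 without the unstretched array of harvest 3 or the stretched array of harvest 1 or 4. It was 1 without the unstretched array of harvest 1 or 2.

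The foetal and hypertrophic list had 7 higher and 1 lower of 14 genes (median 0.54), and its best known members were not the ones that rose most. Nppa, atrial natriuretic peptide, lay at 12.54, 12.77 and 12.55 without stretch and 12.79, 12.88 and 12.69 with it, with overlapping groups and a change of 0.08 ± 0.24 (adjusted p = 0.87). Nppb, brain natriuretic peptide, lay at 11.74, 12.13 and 11.52 and 12.34, 12.48 and 12.41, which do not overlap, with a change of 0.60 ± 0.23 that did not pass (adjusted p = 0.084). It passed in a fit limited to the 96 h and 0 h arrays (adjusted p = 0.033). Acta1, the skeletal actin of the foetal heart, was lower with stretch, at 12.11, 11.63 and 11.80 against 10.52, 10.98 and 11.12 (-0.99 ± 0.31, adjusted p = 0.023). That call was lost without the stretched array of harvest 1 (adjusted p = 0.12) or the unstretched array of harvest 1 (0.16).

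Rcan1, a regulator of calcineurin that calcineurin itself induces, rose from 9.75, 9.83 and 9.63 to 11.12, 10.84 and 11.49 (1.39 ± 0.28, adjusted p = 5.2e-04). Ankrd1, a titin-binding protein of the Z disc region, rose by 0.30, from 12.57, 12.50 and 12.52 to 12.75, 12.87 and 12.93, near the top of the array's range. The myosin heavy chains moved apart. Myh7, the slow chain, read 11.89 to 12.22 without stretch and 12.54, 12.42 and 12.55 with it (0.49 ± 0.10, adjusted p = 6.0e-04), and Myh6, the fast chain of the adult rodent ventricle, read 12.03, 11.39 and 11.91 and 11.30, 11.01 and 11.21 (-0.59 ± 0.12, adjusted p = 4.7e-04). For both, the stretched arrays lay within 0.3 units of each other and did not overlap with the unstretched ones.

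Sarcomere genes had 6 higher and 5 lower of 27 (median 0.10). Nebl, the cardiac nebulette of the Z disc, fell from 9.82, 9.10 and 10.17 to 8.42, 8.45 and 8.75 (-1.21 ± 0.18, adjusted p = 1.9e-05), and the inhibitory troponin Tnni3 fell by 0.68 (adjusted p = 0.0013). Myom2, an M band protein, had the largest fall, from 9.33, 8.70 and 9.66 to 7.31, 7.83 and 5.32 (-2.29 ± 0.63, adjusted p = 0.011), which rests on the stretched array of harvest 4: without it the change was -1.55 at an adjusted p of 0.12. Higher genes numbered 2 without the stretched array of harvest 1 and 3 without the unstretched array of harvest 2 or 3 or the stretched array of harvest 4.

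At the intercalated disc 6 of 16 genes rose and none fell (median 0.17). Pkp2, the cardiac plakophilin of desmosomes, read 10.11, 9.94 and 10.08 without stretch and 10.73, 10.59 and 10.96 with it (0.67 ± 0.11, adjusted p = 8.4e-05), with no overlap and nearly equal differences in harvests 1 and 2 (0.62 and 0.65). Xirp1, an actin-binding Xin protein of the disc, rose by 1.04 (adjusted p = 0.0098), and by 0.94 at an adjusted p of 0.068 without the stretched array of harvest 1. Without that array 2 genes of the list passed. Gja1, the main gap junction connexin, read 10.79, 10.12 and 10.84 and 10.27, 10.05 and 10.90, which overlap (-0.23 ± 0.13, adjusted p = 0.25). It was lower and passed without the stretched array of harvest 4 (-0.38, adjusted p = 0.046) or the unstretched array of harvest 2 (-0.42, 0.031).

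Among potassium and sodium channels 3 rose and 5 fell of 21. Abcc9, the regulatory subunit of the ATP-sensitive potassium channel, fell from 8.28, 7.54 and 8.61 to 7.23, 7.32 and 7.44 (-0.80 ± 0.18, adjusted p = 0.0016), with differences of -1.05 within harvest 1 and -0.22 within harvest 2. The number of lower channels was 1 without the stretched or the unstretched array of harvest 1 or the unstretched array of harvest 3, and that of higher ones was 1 without the stretched array of harvest 1. No call in calcium handling passed among 18 genes, where the values furthest from 0 were Cacna1g, a T-type calcium channel, at 0.52 ± 0.19 (adjusted p = 0.068) and Asph at -0.44 ± 0.16 (adjusted p = 0.061). Both passed with the 2 isotropic arrays left out (adjusted p of 0.033 and 0.0031). Atp2a2, the calcium pump of the sarcoplasmic reticulum, lay at 12.52, 11.90 and 12.27 and 12.23, 11.87 and 12.09 (adjusted p = 0.31).

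The alpha-1 adrenergic receptors Adra1a and Adra1b moved in opposite directions, while Adra1d did not pass. Adra1a read 7.79, 7.60 and 7.68 without stretch and 9.15, 8.97 and 9.28 with it (1.32 ± 0.18, adjusted p = 5.6e-06), and rose by 1.36 and 1.37 within harvests 1 and 2. Adra1b read 6.97, 5.91 and 6.22 and 5.39, 5.14 and 5.17 (-1.21 ± 0.20, adjusted p = 5.8e-05). In neither did the groups overlap. In the list of angiotensin, endothelin, adrenergic and natriuretic systems 1 gene rose and 3 fell of 19, the other falls being Npr3, the clearance receptor of natriuretic peptides (-1.39), and Agtr1a, the angiotensin receptor (-0.93). That count lies near the 15.0% of all genes that passed, and 10 of the 19 had a mean signal below the median of all genes.

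Growth factors and their binding proteins went both ways, with 8 higher and 7 lower of 35. Beside the rises of Fstl3 and Tgfb2 and the fall of Ptn, Igf1, insulin-like growth factor, fell from 8.27, 9.15 and 9.43 to 6.04, 6.98 and 5.80 (-2.44 ± 0.53, adjusted p = 0.0014). Immediate early genes had 5 higher and 1 lower of 19. Dusp1, a phosphatase that switches off MAP kinases, read 8.18, 8.44 and 8.28 without stretch and 9.93, 9.53 and 9.90 with it (1.52 ± 0.23, adjusted p = 1.5e-05), and Ier3 rose by 1.16 (adjusted p = 0.001). Higher genes of this list numbered 2 without the unstretched array of harvest 3 or the stretched array of harvest 4, and 3 without the stretched array of harvest 2. Fos lay at 5.90, 5.98 and 5.61 and 5.85, 6.03 and 6.60, where the stretched array of harvest 1 lay among the unstretched ones, that of harvest 2 just above them and that of harvest 4 higher (0.31 ± 0.14, adjusted p = 0.15).

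Collagen chains had 4 lower and none higher of 18 (median -0.55). Beside Col14a1, these were Col6a1, from 10.04, 10.40 and 10.48 to 7.68, 8.38 and 7.69, Col6a2, from 9.85, 10.14 and 10.04 to 8.26, 8.38 and 7.88, both chains of the beaded collagen of the pericellular matrix, and Col15a1, a basement membrane collagen (-0.84 ± 0.18). None overlapped between groups. The count of lower chains stayed at 4 with any 1 of the 6 arrays left out, and was 11 with the 2 isotropic arrays left out. Other matrix genes had 3 higher and 7 lower of 32 (median -0.33), led by Adamts8, Dpt, Lum and Dcn. Dpt, Lum and Dcn are among the fibroblast markers too, so these lists are not separate evidence. The same holds for other lists with shared genes, such as Zyx, Vcl and Flna (SRF and MRTF, focal adhesion) and Xirp1 and Xirp2 (foetal, intercalated disc).

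**Figure D3:**
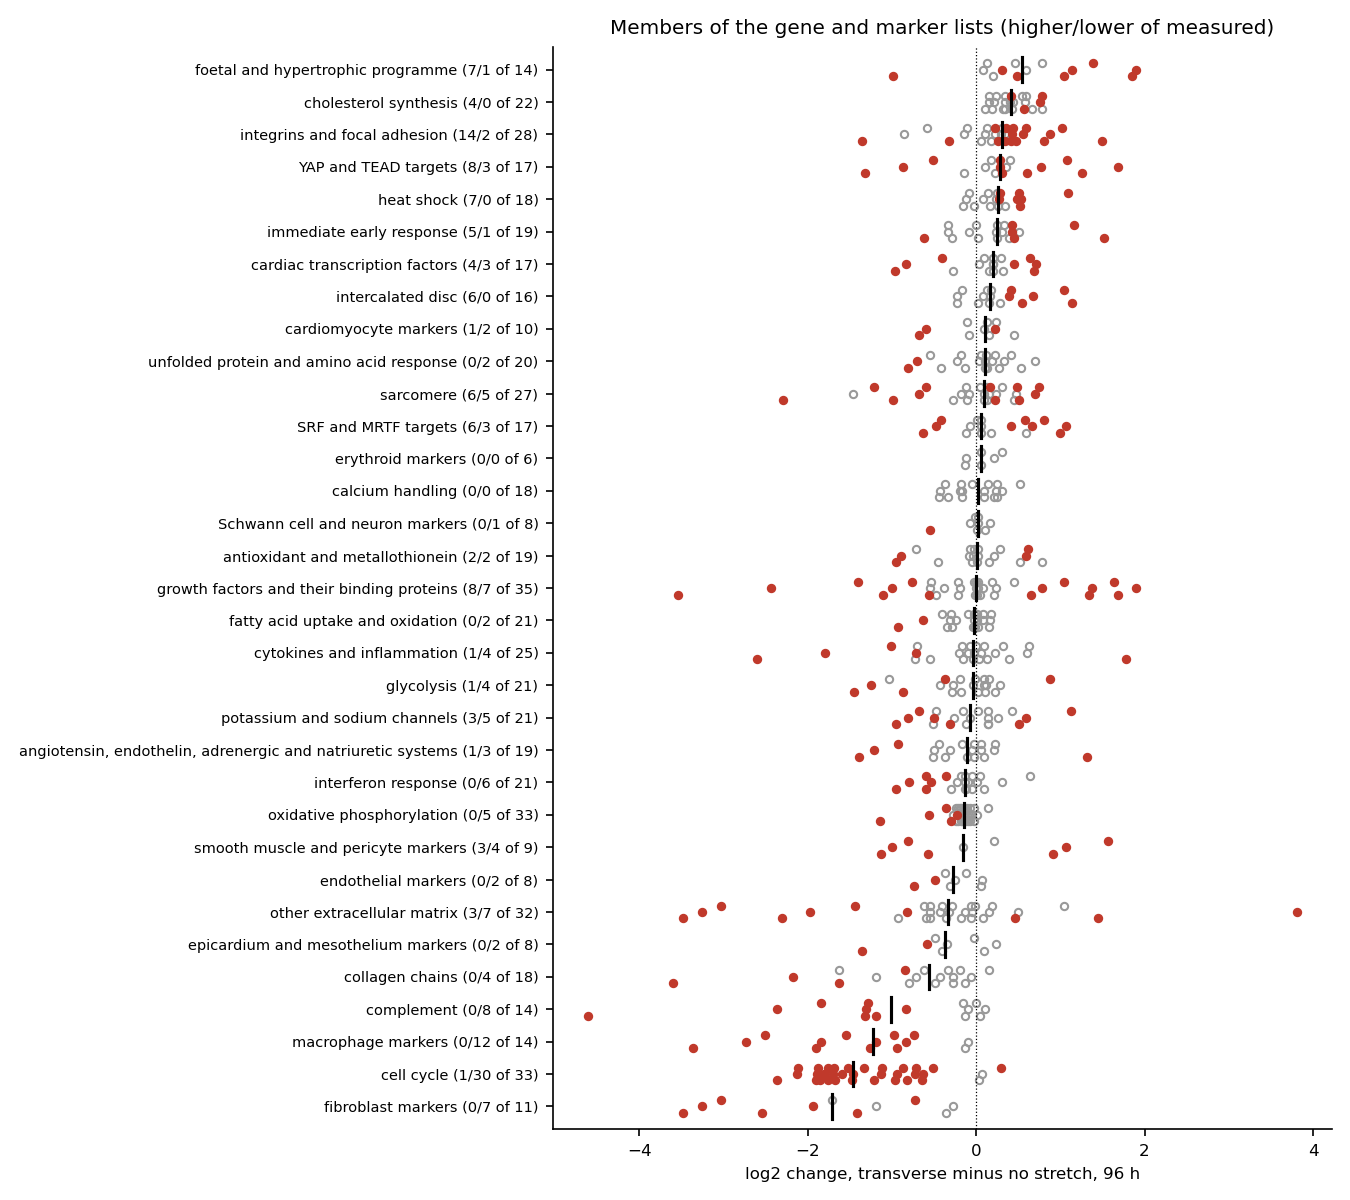
Log2 change, transverse minus no stretch at 96 h, of the measured members of 25 gene lists and 8 marker lists, ordered by the list median (black bar). Filled points passed at an adjusted p under 0.05, open points did not, and the labels give the counts higher and lower of those measured. Fibroblast, cell cycle, macrophage and complement lists have medians of -1.71 to -1.01, and the foetal and hypertrophic list has the highest, 0.54.

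Of 25 cytokine and inflammation genes 4 fell and 1, Ptgs2, rose, where 15.0% of all genes passed. Mean signal lay below the median of all genes in 12 of the 25. Il1rl1, the receptor of interleukin 33, fell from 7.96, 8.50 and 8.30 to 6.04, 5.74 and 4.96 (-2.61 ± 0.32, adjusted p = 6.9e-07), and the chemokine Cxcl12 from 6.76, 6.94 and 7.08 to 4.79, 5.28 and 5.13 (-1.79 ± 0.19, adjusted p = 8.2e-08). Neither overlapped. Among 21 interferon response genes 13 had a mean signal below that median. Of the 21, 6 fell and none rose, with Ifit2 at -0.95 ± 0.20 and the transcription factor Irf9 at -0.80 ± 0.15. That count was 3 without the unstretched array of harvest 1 or 2 or the stretched array of harvest 1. Macrophage markers fell on the same arrays, and their part in these counts was not tested.

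Fatty acid uptake and oxidation had 2 lower of 21, glycolysis 1 higher and 4 lower of 21, and oxidative phosphorylation 5 lower of 33 (median -0.15), and no gene of the first and last was higher. Over all genes 15.0% passed in either direction. The harvests that held both groups differed in sign for these 2 lists. For oxidative phosphorylation the median difference was -0.27 within harvest 1 (33 of 33 genes below 0) and 0.03 within harvest 2 (11 of 33). For fatty acid genes it was -0.24 (17 of 21) and 0.15 (6 of 21). The muscle enolase Eno3 read 8.16, 7.77 and 8.63 without stretch and 6.46, 6.94 and 7.01 with it (-1.45 ± 0.22, adjusted p = 2.3e-05), the muscle mutase Pgam2 fell by 1.24 and the cytochrome oxidase subunit Cox8b by 1.15. Hadh, an enzyme of beta-oxidation, fell by 0.93. For each of these 4 the unstretched array of harvest 2 was the lowest of its group. That array was also the lowest in cardiomyocyte markers (11.20 against 11.81 and 11.61), and without it 15 genes of oxidative phosphorylation and 6 of fatty acid oxidation were lower. Glycolysis had 2 lower genes without the unstretched array of harvest 1 or 3 or the stretched array of harvest 4, and fatty acid oxidation had 1 without either array of harvest 1 or the unstretched array of harvest 3. Oxidative phosphorylation had 3 without the unstretched array of harvest 1.

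Heat shock genes had 7 higher and none lower of 18, with Hspb3, a muscle small heat shock protein, going from 8.23, 8.28 and 8.17 to 9.54, 9.01 and 9.42 (1.09 ± 0.22, adjusted p = 4.9e-04). The count was 2 without the stretched array of harvest 4, 3 without the unstretched array of harvest 2 and 4 without the unstretched array of harvest 3 or the stretched array of harvest 1. Cholesterol synthesis had 4 higher and none lower of 22 (median 0.41), the largest being Sc5dl (0.78 ± 0.25) and Sc4mol (0.76 ± 0.25), enzymes late in the pathway. No gene of it passed without the stretched array of harvest 1, 1 passed without the unstretched array of harvest 3, and 2 without the unstretched array of harvest 1 or 2 or the stretched array of harvest 4. With the 2 isotropic arrays left out 12 passed.

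Cardiac transcription factors had 4 higher and 3 lower of 17. Myocd, myocardin, read 9.06, 8.58 and 8.87 without stretch and 9.75, 9.38 and 9.56 with it (0.69 ± 0.14, adjusted p = 7.5e-04), and the oestrogen-related receptor Esrrg rose by 0.72. Irx4, a ventricular homeobox gene, fell from 8.11, 7.39 and 8.22 to 6.81, 6.92 and 7.27 (-0.96 ± 0.18, adjusted p = 3.0e-04), and Hopx fell by 0.84. The 4 genes did not overlap between groups. Ddit3, a transcription factor of the unfolded protein response, fell by 0.81 (adjusted p = 5.0e-04), 1 of 2 lower genes among 20 of that list, where none rose. In the antioxidant list 2 rose and 2 fell of 19, and none fell without the stretched array of harvest 1. The counts of these last 2 lists lie near the shares of all genes, 6.39% higher and 8.65% lower.

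The direction of stretch was addressed by setting transverse against longitudinal stretch at 96 h. No gene passed (smallest adjusted p 0.52), while 1061 genes had an unadjusted p under 0.05. Without the transverse array of harvest 2, 15 genes passed. Longitudinal stretch against none changed 1804 genes (9.70% of those tested), and it shares the unstretched arrays with the transverse comparison, so that values are given only side by side. Adamts8 read 9.56, 9.70 and 9.43 with longitudinal stretch and rose by 3.54, against 3.81 for transverse stretch, a difference of 0.27 with a 95% interval of -0.50 to 1.03. Col14a1 read 5.63, 5.64 and 6.08, and the difference between directions was -0.37 (-1.19 to 0.44).

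Among the 133 named genes, 5 had a 95% interval that did not include 0 before any adjustment: Kremen1, F3, Top2a, Rrm2 and Ddit3. Over all genes 5.70% had an unadjusted p under 0.05 in this comparison, so that count is no more than the background, and the values of these genes are given as a description. Kremen1 read higher with transverse stretch by 0.55 (0.20 to 0.90), with 8.53, 8.90 and 8.62 on the longitudinal arrays against 9.54, 8.81 and 8.91 on the transverse ones, where only the longitudinal array of harvest 5 reached the transverse range. F3 differed by -0.36 (-0.60 to -0.11). Top2a differed by -1.10 (-2.03 to -0.16), with 7.69, 7.81 and 7.59 on longitudinal arrays, which lie between the transverse array of harvest 2 and the other transverse arrays. The adjusted p of the 5 genes ran from 0.61 for Kremen1 to 0.86 for Ddit3. Lyz2 shows how wide the intervals were, at -1.02 (-2.20 to 0.17). Of the cell cycle list 14 genes were lower with longitudinal stretch and none higher, and of the macrophage markers 12 were lower.

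**Figure D4:**
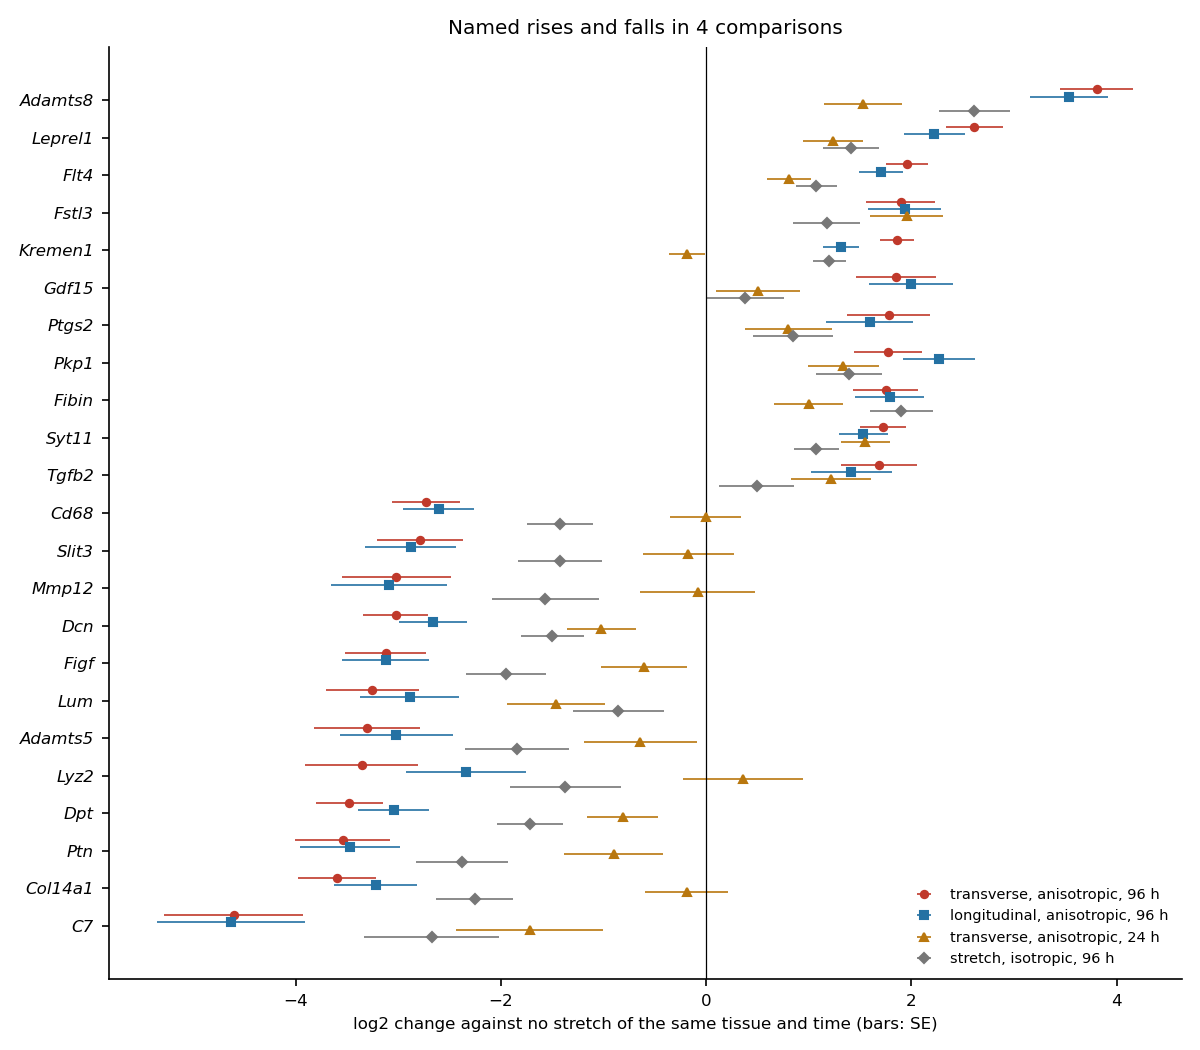
Log2 change against no stretch of the same layout and time, with its standard error as a bar, for 11 genes with large rises and the 12 with the largest falls under transverse stretch at 96 h. The longitudinal points at 96 h share the unstretched arrays with the transverse ones, the 24 h points of Cd68, Slit3, Mmp12, Lyz2 and Col14a1 lie near 0, and the isotropic points at 96 h mostly lie closer to 0.

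How the response grew with time was addressed by testing the transverse response at 96 h against that at 24 h. At 6 h no gene had passed (575 at an unadjusted p under 0.05), and at 24 h 271 had (1.46%). The response differed between 24 h and 96 h in 163 genes (0.876%), with 48 of them higher and 115 lower at 96 h. This count depended on single arrays: it was 50 without the transverse array of harvest 1 at 96 h, 98 and 67 without the unstretched 96 h arrays of harvests 1 and 3, and 69 without the unstretched 24 h array of harvest 2 or of harvest 4. At 24 h the stretched arrays came from harvests 4, 5 and 6 and the unstretched ones from harvests 1, 2 and 4, so that only harvest 4 held both. At 6 h the stretched arrays came from harvests 3, 4 and 5 and the unstretched ones from harvests 1, 2 and 5, so that only harvest 5 held both. The response at 6 h was not tested against the later ones.

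The 5 largest differences on the lower side were of Lyz2, Col14a1, Cybb, Cd68 and Fcer1g. Lyz2 changed by 0.36 ± 0.59 at 24 h and -3.36 ± 0.55 at 96 h, a difference of -3.72 ± 0.80 (adjusted p = 0.017), which did not pass without the transverse (0.057) or unstretched (0.054) array of harvest 1. Cd68 changed by less than 0.01 at 24 h and -2.73 at 96 h (-2.72 ± 0.48, adjusted p = 0.0025). Col14a1 changed by -0.19 at 24 h (-3.40 ± 0.55, adjusted p = 0.0017). Cybb, a subunit of the phagocyte NADPH oxidase, differed by -3.25 ± 0.53 (adjusted p = 0.0017) and Fcer1g, the signalling chain of Fc receptors, by -2.72 ± 0.56 (adjusted p = 0.011, or 0.071 without the transverse array of harvest 1 at 96 h). Of the 14 macrophage markers 7 had a lower response at 96 h than at 24 h, as did 2 of 11 fibroblast markers.

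Lyz2 and Col14a1 also moved in tissue that was never stretched. Between 24 h and 96 h unstretched anisotropic tissue changed in 2669 genes (14.3%). Lyz2 rose there from 6.99 ± 0.19 to 9.72 ± 0.16 (mean ± SD, n = 3), while stretched tissue went from 6.95 ± 0.37 to 6.18 ± 0.28. Col14a1 rose from 6.16 ± 0.37 to 9.15 ± 0.29 without stretch and was 5.96 ± 0.48 and 5.27 ± 0.24 with it, after 9.20 ± 0.35 at 0 h (n = 6). Unstretched tissue raised 5 of 14 macrophage markers, 5 of 11 fibroblast markers, 12 of 18 collagen chains and 6 of 33 cell cycle genes over that time, and lowered none of these.

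Genes with a stronger rise at 96 h were Adamts8 (difference 2.27 ± 0.52, adjusted p = 0.023), Kremen1 (2.05 ± 0.24, 1.0e-05), Efnb2, an ephrin ligand (1.82 ± 0.34, 0.0054), and Mybl1, a transcription factor of the Myb family (1.40 ± 0.33, 0.03). Kremen1 had changed by -0.19 at 24 h and Efnb2 by -0.45, so that both went from no call to a rise. The Adamts8 call was lost with 6 of the single arrays left out (adjusted p of 0.054 to 0.11) and that of Mybl1 with 8 (0.06 to 0.096). Mx2, an interferon-induced GTPase, differed by 1.75 ± 0.44: it was lower with stretch at 24 h (-1.65 ± 0.32, adjusted p = 0.0073) and changed by 0.10 ± 0.31 at 96 h, which did not pass. Its call (adjusted p = 0.048) was lost with 9 of the single arrays left out (0.059 to 0.17). Ctgf, in contrast, had risen by 1.14 at 24 h and Fstl3 by 1.95, close to their values at 96 h.

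**Figure D5:**
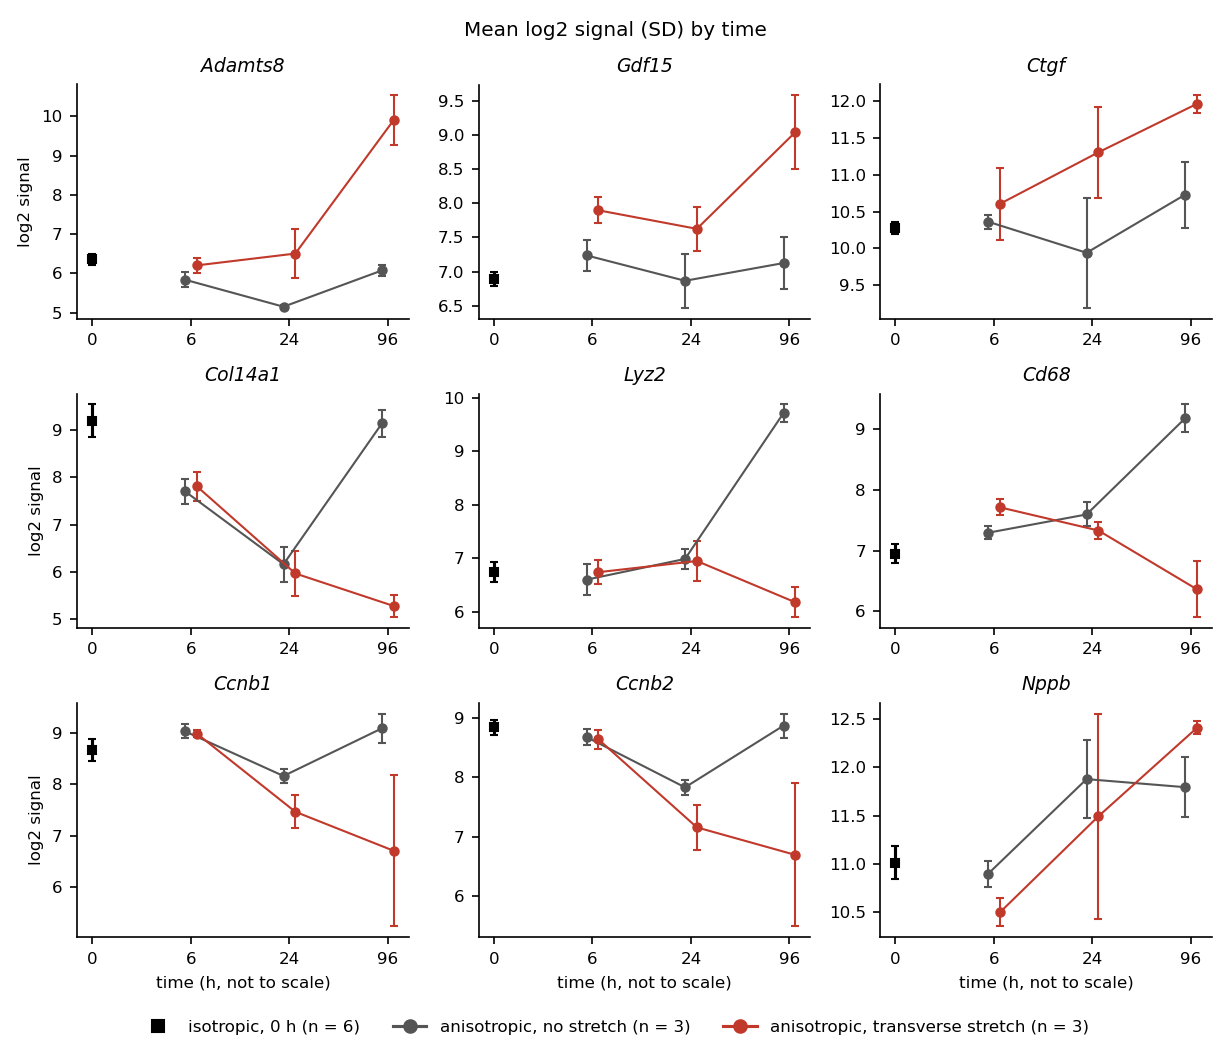
Mean log2 signal of 9 genes in anisotropic tissue without stretch and with transverse stretch at 6, 24 and 96 h (n = 3 each) and in isotropic tissue at 0 h (n = 6); bars are SD, each panel has its own y axis and the time axis is not to scale. Lyz2, Cd68 and Col14a1 rise without stretch from 24 to 96 h and do not with stretch, and the stretched Ccnb1 arrays at 96 h spread widely.

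Tissue layout was addressed by testing the transverse response against that of isotropic tissue at 96 h. No gene passed (smallest adjusted p 0.276), with 1797 genes at an unadjusted p under 0.05. In isotropic tissue 546 genes (2.94%) changed with stretch. Adamts8 rose by 2.61 there against 3.81 in aligned tissue, and C7 fell by 2.67 against 4.60. The transverse value was the further from 0 in both. Gdf15 rose by 1.85 in aligned tissue and changed by 0.38 ± 0.38 in isotropic tissue, where it did not pass (adjusted p = 0.74). The difference between layouts did not pass for it either. The isotropic unstretched group holds the array that lay near 24 h tissue, and with the 2 isotropic arrays left out 2 genes passed, while 10 passed without the isotropic unstretched array of harvest 2 alone, 2 without the isotropic stretched array of harvest 1, and 1 without the isotropic unstretched array of harvest 1 or the transverse array of harvest 4.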

How the data were processed

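RNA of neonatal rat ventricular myocytes had been hybridised to Affymetrix rat gene arrays, 1 array a sample. The authors deposited a table of log2 signals from the RMA method; the submitters' processing notes name Affymetrix Expression Console for it, and limma too. Their versions, and a genome build, are not given in the sources used here. RMA corrects the background, quantile-normalizes the arrays and summarises probes, so a change in total RNA per cell cannot be seen. A second deposited table of the same values differed from it by 0.

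Of 29214 probe sets, 20360 had 1 symbol, 8792 none and 62 several. The probe set with the highest mean stood for each of 18602 genes (1022 had several). limma 3.58.1 in R 4.3.3 fitted 16 group means and a harvest term to 51 arrays (30 residual degrees of freedom), with eBayes and Benjamini-Hochberg adjustment over all genes. Within each group every array came from a different harvest, and all but the 0 h arrays are labelled as biological replicates. The number of arrays, 3 a group, limits the precision.

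Harvest numbers pair arrays: labels state the harvest, and deviations from group means correlated at a mean of 0.219 over 220 same-harvest pairs and -0.048 over 995 others. The comparisons were transverse against none and against longitudinal stretch at 96 h, and the response at 96 h against that at 24 h and that in isotropic tissue.

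The members and the 25 gene lists and 8 marker lists (619 of 653 entries measured, 6 by a synonym) were chosen with earlier results of these data known. The 133 named genes are the 12 largest rises and 12 largest falls past 0.05 with 1 sign in harvests 1 and 2, up to 4 of each list by size of change, 11 fixed genes, and up to 5 a direction from the other tests. Some of them are not reported here. Hspa1a was read through its near-identical copy Hspa1b.

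Alternatives were no harvest term, harvest as a random block, each harvest's own 0 h array subtracted, only the time points compared, only harvests 1 and 2, the 2 isotropic arrays that lay apart left out or exchanged, genes with a mean log2 signal under 6 left out, the median over probe sets, a further quantile normalization, eBayes with trend and robust, a 1.5-fold minimum, each array left out, and, chosen after seeing the data, the 6 arrays alone and anisotropic tissue alone. The code was tested on simulated data. Promoters are RefSeq's for GRCr8, searched on both strands with Python 3.11.15.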

Additional observations from a re-analysis of the deposited data

Results flagged for a closer look

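The transverse response differed between 96 h and 24 h in 163 genes by limma's test of the difference itself. The named genes among them with a higher response at 96 h were Adamts8, with a difference of 2.27 on the log2 scale, Kremen1 (2.05), Efnb2 (1.82), Mx2 (1.75) and Mybl1 (1.40). Those with a lower response at 96 h were Lyz2 (-3.72), Col14a1 (-3.40), Cybb (-3.25), Cd68 (-2.72) and Fcer1g (-2.72). The groups at 24 h and at 96 h came from partly different harvests, and the part of this in the differences was not tested.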

How the results depend on the processing

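The pairing by harvest bears on the counts: with no replicate block, that is without the harvest term, 2059 genes passed for transverse against no stretch at 96 h, against 2797 with it, and 90 in place of 163 for the response at 96 h against 24 h, while none passed in the tests against longitudinal stretch and against isotropic tissue under either. For transverse against no stretch, 1473 genes passed after subtracting the 0 h array of the same harvest, 616 with only harvests 1 and 2 (600 of them among the 2797), 945 with only the 6 arrays and 1110 with a 1.5-fold minimum; leaving out 1 array at a time gave 1601 to 2878. Further quantile normalization gave 3215, of which 52.9% were higher against 42.5%. The response at 96 h against 24 h gave 55 genes with own 0 h arrays subtracted, 26 with only the time points compared, 517 with the 2 isotropic arrays left out and 466 with them exchanged, and 50 to 185 with 1 array left out; with only harvests 1 and 2 it could not be fitted. Against longitudinal stretch, leaving out 1 array gave 0 to 15 genes. Against isotropic tissue, 2 passed with the 2 isotropic arrays left out, 6 with them exchanged, and 0 to 10 with 1 array left out. Of the 133 named genes none that passed changed direction under any of these settings. Among those that had not passed, Nppa (-0.08), Mx2 (-0.09) and Alas2 (-0.05) turned below 0 without the stretched array of harvest 1, Alas2 (-0.01) also with own 0 h arrays subtracted, and Fos came to -0.0046 with only harvests 1 and 2. With only harvests 1 and 2, 72 of them no longer passed, with only the 6 arrays 40, with own 0 h arrays subtracted 24, with only the time points compared 18 and without the harvest term 15. Some of these settings use fewer arrays, and the cause of these changes was not tested. Signals near the lower end, as of C7 with stretch, bound a fall from below only.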

Other observations

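Some genes of the growth factor and matrix lists that the naming rule left out also passed; they were chosen after their values were seen. Fgf9, a fibroblast growth factor, rose by 1.64, Timp3, an inhibitor of metalloproteinases, by 1.45, Hbegf, a ligand of the epidermal growth factor receptor, by 1.37, Inhba, the activin subunit, by 1.34 and Fgf2 by 1.04. Eln, which encodes elastin, fell by 2.31, Ogn, the proteoglycan osteoglycin, by 1.97 and Bmp6, a bone morphogenetic protein, by 1.41. Of 8854 probe sets with no single symbol, 61 were higher and 82 lower with transverse stretch at 96 h, or 1.62%.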
